A study of Mus musculus with 12 samples.

Results

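Crypts of the mouse ileum, the last segment of the small intestine, were compared with crypts of the duodenum, the first segment. The libraries were chosen by their labels: 2 ileal and 2 duodenal crypt libraries, 4 of the 12 libraries of the series, paired by replicate number. The study sequenced polyadenylated RNA from freshly isolated crypts, freshly isolated villi, and organoids cultured for 12 weeks, each from duodenum, jejunum and ileum. Crypts had 2 libraries per origin, and villi and organoids had 1. The labels name no genotype, treatment or cell sort, and they give no strain, age, sex or pooling of mice. The labels also do not say that replicates came from separate animals, so the spread behind the p-values may be technical. In the main fit it is the spread between these libraries that is left after a term for replicate number. Nor do they say whether libraries with the same replicate number share an animal or a preparation. By its title, the study asked whether stem cells along the small intestine carry the program of their own segment.

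Crypts are pockets of the intestinal epithelium that hold the stem cells, their dividing progeny and the Paneth cells, which release antimicrobial peptides at the crypt base. Cells that leave the crypt become absorptive enterocytes, mucus-producing goblet cells or hormone-producing endocrine cells. The duodenum receives the stomach's outflow and takes up much of the iron, fat and sugar, and the ileum recovers bile acids and vitamin B12. Along the gut, position is marked by transcription factors: Gata4 and Onecut2 are known as proximal factors, and Hox genes, which lie in clusters, are used in nested domains from front to back.

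Expression is given as RPKM, read counts scaled by transcript length and library size, which is per length and so can be set side by side between genes. The RPKM values implied between 5268480 and 10275855 mapped reads per library among these 4, and duodenal replicate 1 was the shallowest. The stem cell genes Lgr5, Olfm4, Ascl2 and Smoc2 and the Paneth cell genes Lyz (current symbol Lyz1), Mmp7 and Ang4 were detected in each of the 4 libraries. The replicates differed in a way shared by both segments. Summed RPKM of 18 markers of mature enterocytes was 889.9 and 9424 in duodenal replicates 1 and 2, and 1046 and 12860 in ileal replicates 1 and 2. Such a sum is weighted to its most abundant genes. Gene by gene, 7 of the 18 were higher and 11 lower in ileum, with a median log2 difference of -0.78. Summed RPKM of the alpha-defensin genes, with symbols of identical values counted once, was 30249 and 5068 in duodenum and 121443 and 44188 in ileum, so it was lower in replicate 2 of both. Markers of smooth muscle summed to between 1.38 and 9.99 RPKM, of fibroblasts to between 0.674 and 3.93, of T lymphocytes to between 0.718 and 2.31, and of B lymphocytes to between 2.32 and 5.18. Myeloid markers summed to 53.0 and 18.7 RPKM in duodenum and 87.8 and 41.6 RPKM in ileum, higher in ileum in each pair; without the lysozyme gene Lyzs the other 7 summed to 25.1 and 13.2 RPKM in duodenum and 20.4 and 17.8 RPKM in ileum. The part of these cells in the results was not tested. Markers of stomach and Brunner's glands, the mucous glands of the duodenum, summed to 10.01 and 38.4 in duodenum and 1.52 and 0.627 in ileum. Among them the gastric gene Gkn2 was at 8.33 RPKM in duodenal replicate 2 and at 0 in the other 3 libraries.

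Of 11124 genes tested, 37 passed an adjusted p of 0.05 in limma's moderated test with the replicate number as a block. Of these, 25 genes were higher in ileal crypts, 0.225% of the genes tested, and 12 were higher in duodenal crypts, 0.108%. These shares are the background for each count of genes that rose or fell in a list below. Regardless of the threshold, 5185 genes had a positive and 5935 a negative difference. The 25 ileal genes included the bile acid binding protein gene Fabp6 and 4 Paneth cell alpha-defensins, which had the 5 highest differences, and 7 neighbouring Hoxb genes. The 12 duodenal genes included the factors Onecut2 and Gata4, the lipid and retinoid carriers Fabp1, Apoa4 and Rbp2, and the alcohol dehydrogenases Adh1 and Adh6a. Differences on the log2(RPKM + 1) scale ran from 1.76 to 9.03 upwards and from -2.77 to -5.32 downwards, and the median over all genes tested was -0.03. The pairs did not share that centre: the median over all genes was 0.16 in pair 1 and -0.19 in pair 2. For 35 of the 37 genes both ileal libraries lay on one side of both duodenal libraries, which held for 10.4% of all genes with ileum higher and 12.1% with duodenum higher. The 37 were selected for their difference in these same libraries, which favours such a gap, so this count does not test the calls. A fit with no block called 4 of these genes: Hoxb9, Hoxb6 and Hoxb8 in the ileal direction (0.027% of genes) and Onecut2 in the duodenal direction (0.00899%). The other 33 had an adjusted p between 0.0796 and 1 without the block. With no filter on low values 2 genes passed, Defcr21 and Defcr22; there Hoxb9, Hoxb8 and Onecut2 had an adjusted p of 0.0548 and Hoxb6 one of 0.0568. Each fit that left out 1 library passed more genes than the main fit, so its keeping of the 37 does not test the calls.

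**Figure D1:**
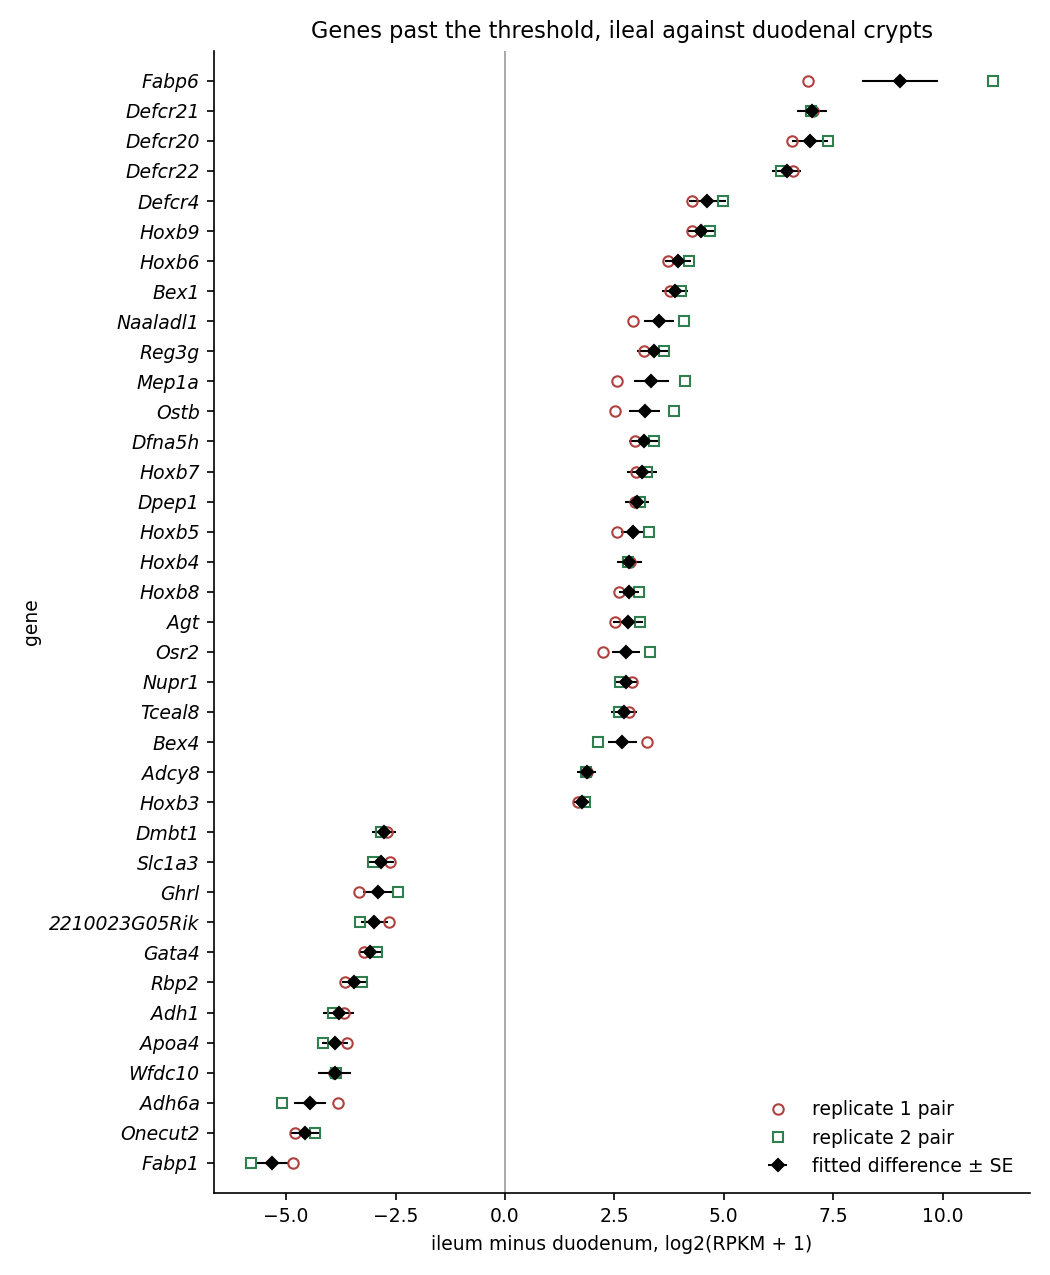
Ileum minus duodenum difference on the log2(RPKM + 1) scale (horizontal axis) for the 37 genes that passed the threshold, with the fitted difference and its SE (diamond and bar), the replicate 1 pair (circle) and the replicate 2 pair (square). Both pairs lie on the same side of 0 for each gene, and Fabp6 has the widest gap between pairs, 6.92 against 11.14.

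Genes of the Hoxb cluster were nearly silent in duodenal crypts and were expressed in ileal crypts. In the files' mm9 coordinates the 7 genes that rose lie side by side on chromosome 11, from Hoxb9 (start 96132643) to Hoxb3 (end 96209243), on the plus strand. Hoxb9, the most distal of them in its known domain, was at 0.141 and 0.118 RPKM in duodenal replicates 1 and 2 and at 20.9 and 27.6 RPKM in ileal replicates 1 and 2. The duodenal values rest on 2 and 3 reads, the ileal ones on 504 and 765, and the groups did not overlap. The log2 difference of Hoxb9 was 4.47 ± 0.30 (SE; n = 2 libraries per origin), with an adjusted p of 0.00664 with the replicate block and 0.0223 without it.

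Hoxb6 was at 0.431 and 0.241 RPKM in duodenum and at 17.8 and 21.7 RPKM in ileum, a log2 difference of 3.96 ± 0.30 (SE; adjusted p = 0.00849, and 0.0223 without the block). Hoxb8 was at 0.143 and 0 RPKM in duodenum and at 5.92 and 7.36 RPKM in ileum, a difference of 2.83 ± 0.23 (adjusted p = 0.00979, and 0.0223 without the block). Both genes kept the libraries of the segments apart, and the ileal replicates lay close to each other. Hoxb7 was at 0 and 0.167 RPKM in duodenum and at 6.96 and 10.1 RPKM in ileum. Hoxb5 was at 0.601 and 0 RPKM in duodenum and at 8.43 and 8.83 RPKM in ileum. Hoxb4 was at 1.46 and 0.458 RPKM in duodenum and at 16.9 and 9.28 RPKM in ileum, with ileal replicate 1 well above replicate 2. Hoxb3, at the other end of the block, had the smallest rise, 1.76, from 0.336 and 0.157 RPKM to 3.27 and 3.13 RPKM. These 4 had adjusted p-values between 0.0159 and 0.0319 with the block and between 0.0796 and 0.228 without it. Since duodenal values were near 0, these log2 differences depend on the pseudocount of 1 RPKM and are smaller than the ratios of RPKM, which for Hoxb9 were 148 in pair 1 and 234 in pair 2.

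Outside this block, the Hox genes were low. Of 39 Hox genes matched, 28 had too few reads to be tested. Of the 11 tested, 7 rose and none fell, and their median difference was 2.83 against -0.03 over all genes; a Hox gene with reads only in ileum could enter the test through ileum alone, so these counts describe the genes and do not support a direction. The 4 tested genes that did not pass were Hoxd4, Hoxa3, Hoxa4 and Hoxb2, with ileal values between 0.512 and 1.21 RPKM and differences between 0.46 and 0.79. Hoxb2, the next gene of the cluster in the known order after Hoxb3, was at 0.117 and 0.456 RPKM in duodenum and at 0.686 and 0.836 RPKM in ileum (adjusted p = 0.573).

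The Hoxb8 promoter is shown because Hoxb8 passed both fits and is the member of the block, with Hoxb4, for which the RefSeq promoter table held an entry. The 300 bases run from 250 before to 50 after the annotated start, in the GRCm38.p6 build, chr11:96281655-96281954, plus strand. Capitals mark matches, on either strand, to AGATAA or TGATAA (letters known from GATA factor sites), TTTATG (CDX and HOX factors) and CAAAGT (HNF4); in this window none of the matches overlap.
Hoxb8: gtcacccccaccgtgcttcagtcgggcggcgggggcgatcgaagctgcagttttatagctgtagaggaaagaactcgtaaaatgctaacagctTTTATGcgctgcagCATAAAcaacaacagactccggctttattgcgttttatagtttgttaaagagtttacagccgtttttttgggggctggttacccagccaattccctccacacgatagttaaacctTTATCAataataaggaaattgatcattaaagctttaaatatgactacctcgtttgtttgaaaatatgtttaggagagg
The window held 2 matches to TTTATG and 1 to TGATAA. A match is a description of letters and not a measured binding site.

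Among the other transcription factors listed, 3 passed the threshold: Onecut2 and Gata4 were lower in ileal crypts and Osr2 was higher. Onecut2, a factor of the cut homeobox family, was at 30.3 and 20.3 RPKM in duodenal crypts and at 0.125 and 0.0509 RPKM in ileal crypts. The groups were far apart, with 15 and 7 reads in ileum against 2139 and 2557 in duodenum. Its log2 difference was -4.57 ± 0.34 (SE; adjusted p = 0.00849, and 0.0223 without the block). With ileal values near 0 this difference depends on the pseudocount; the ratio of ileal to duodenal RPKM was 0.00413 in pair 1 and 0.00251 in pair 2. Gata4, a zinc finger factor that sets jejunal against ileal identity in the mouse, was at 39.1 and 95.2 RPKM in duodenum and at 3.30 and 11.7 RPKM in ileum. Gata4 was higher in replicate 2 of both segments and the segments did not overlap; the difference was -3.07 ± 0.26 (adjusted p = 0.0104, and 0.545 without the block). Osr2, a zinc finger factor of the odd-skipped family, was at 11.7 and 12.8 RPKM in duodenum and at 58.5 and 134.9 RPKM in ileum, a difference of 2.77 ± 0.33 (adjusted p = 0.0319, and 0.386 without the block).

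The factors that set intestinal identity along the whole length did not pass. Of 24 tested intestinal transcription factors, 1 rose (Osr2) and none fell, with a median of 0.36. Cdx2, a master factor of the intestinal epithelium, was at 70.5 and 134.8 RPKM in duodenum and at 76.3 and 144.7 RPKM in ileum, and its pattern followed the replicate number. Hnf4a, a nuclear receptor of enterocytes, had a difference of 0.16 ± 0.28, and Gata6, a relative of Gata4, one of -0.13 ± 0.36. Pdx1, a factor of duodenum and pancreas, had too few reads to be tested: it was at 0.147 and 6.84 RPKM in duodenal replicates 1 and 2 and listed at 0 in both ileal libraries, so the duodenal libraries differed from each other in this gene.

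**Figure D2:**
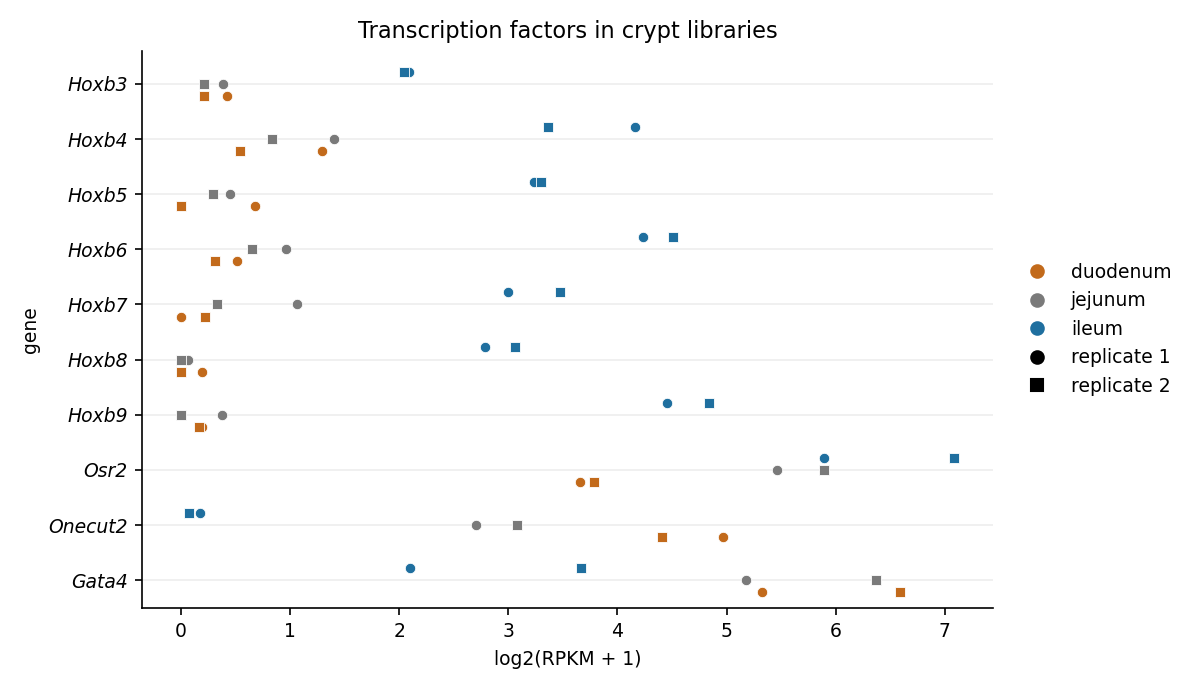
Levels of 10 transcription factor genes as log2(RPKM + 1) (horizontal axis) in the 6 crypt libraries, coloured by origin, with circles for replicate 1 and squares for replicate 2. The jejunal points of the Hoxb genes lie with the duodenal ones, those of Gata4 too, while for Onecut2 and Osr2 they lie between or near the ileal ones.

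Alpha-defensins, the antimicrobial peptides of Paneth cells, gave the largest differences after Fabp6. Of 11 alpha-defensin genes matched, 8 were tested, and these gave 7 different sets of values because Defcr24 and Defcr6 carried identical ones. Of the 7, 4 rose and none fell, against 0.225% of all genes that rose. The median difference was 4.62 (3.71 over the 8 symbols). Reads may be shared between near-identical copies, so the 4 may not be separate measurements and their count is a description only. Defcr21 (current symbol Defa21) was at 61.7 and 16.7 RPKM in duodenal crypts and at 8297 and 2259 RPKM in ileal crypts. Defcr22 (Defa22) was at 70.9 and 21.5 RPKM in duodenum and at 6834 and 1766 RPKM in ileum. Defcr20 (Defa20) was at 293.8 and 53.7 RPKM in duodenum and at 27650 and 9051 RPKM in ileum. In these 3 genes replicate 1 was above replicate 2 in both segments, and the lower ileal library lay far above the higher duodenal one. The ratio of RPKM was 134 in pair 1 and 135 in pair 2 for Defcr21, and 94.1 and 168.7 for Defcr20. Log2 differences were 7.02 ± 0.34 for Defcr21, 6.43 ± 0.33 for Defcr22 and 6.96 ± 0.41 for Defcr20 (adjusted p = 0.00285, 0.00285 and 0.00456 with the block, and 0.12, 0.152 and 0.215 without it). Defcr4 was at 47.5 and 9.25 RPKM in duodenum and at 928.1 and 322.5 RPKM in ileum, a difference of 4.62 ± 0.43 (adjusted p = 0.0148, and 0.386 without the block).

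Other defensins were abundant in both segments. Defcr24 (Defa24) was at 28730 and 4756 RPKM in duodenum and at 73350 and 29160 RPKM in ileum, a difference of 1.98 ± 0.67 that did not pass (adjusted p = 0.438). Defcr26 (Defa26) had a difference of 1.89 ± 0.34 (adjusted p = 0.117). Alpha-defensin genes are near-identical copies, and the labels do not say how reads that fit several copies were assigned, so the split between named copies is uncertain. Their RefSeq promoters show this likeness: the 300-base windows of Defa21 and Defa22 were identical at 300 positions, and that of Defa20 matched each at 293 positions, 97.7%. The Defa21 window stands for the 3 (chr8:21025295-21025594, plus strand, GRCm38.p6, capitals as for Hoxb8), and its 1 match was to TGATAA.
Defcr21: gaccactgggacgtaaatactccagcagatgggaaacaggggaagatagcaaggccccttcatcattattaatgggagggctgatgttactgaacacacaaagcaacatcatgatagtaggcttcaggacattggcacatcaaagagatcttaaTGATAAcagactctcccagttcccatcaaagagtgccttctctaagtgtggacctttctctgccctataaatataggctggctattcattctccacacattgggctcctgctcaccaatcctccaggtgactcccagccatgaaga

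Other Paneth cell genes had smaller differences. Of 10 tested, 1 rose (Nupr1), none fell, 9 had a positive difference, against 5185 of all 11124 genes, and the median was 1.76. Nupr1, a stress-responsive chromatin protein gene, was at 56.7 and 16.9 RPKM in duodenum and at 432.4 and 109.6 RPKM in ileum, with a difference of 2.77 ± 0.25 (adjusted p = 0.0148, and 0.972 without the block). Lyz, the Paneth cell lysozyme, was at 3661 and 1031 RPKM in duodenum and at 11810 and 3466 RPKM in ileum, 1.72 ± 0.41 (adjusted p = 0.227). The matrix protease Mmp7, which cuts pro-defensins in mouse, had a difference of 1.97 ± 0.33 (adjusted p = 0.0978), and the antimicrobial Ang4 one of 2.04 ± 0.40 (adjusted p = 0.146). Sox9, a factor that Paneth and progenitor cells need, was at 26.3 and 19.0 RPKM in duodenum and at 23.5 and 20.3 RPKM in ileum. In such bulk libraries more cells of a type and more RNA per cell cannot be told apart, and the part of Paneth cell content in the defensin differences was not tested.

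Genes of bile acid handling, a task of the distal ileum, included the largest difference of the comparison. Of 10 tested, 2 rose and none fell, against 0.225% of all genes that rose, and the median was 2.25. A gene with reads only in ileum, such as Slc10a2 below, could enter the test through ileum alone. These counts therefore describe the genes and do not support a direction. Fabp6, the cytosolic bile acid binding protein of ileal enterocytes, was at 11.8 and 5.48 RPKM in duodenal crypts and at 1544 and 14640 RPKM in ileal crypts. Ileal replicate 2 was far above ileal replicate 1, and both lay far above duodenum: the ratio was 131 in pair 1 and 2671 in pair 2. The log2 difference was 9.03 ± 0.87 (adjusted p = 0.0159, and 0.101 without the block). Ostb (current symbol Slc51b), a subunit of the basolateral bile acid exporter, was at 8.95 and 42.4 RPKM in duodenum and at 55.7 and 633.3 RPKM in ileum, a difference of 3.19 ± 0.36 (adjusted p = 0.0279, and 1 without the block).

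Partners of these genes had large differences that did not pass. Slc10a2, the apical bile acid importer, was at 0 in both duodenal libraries and at 1.44 and 33.1 RPKM in ileum (3.19 ± 0.86, adjusted p = 0.3). Osta (Slc51a), the partner subunit of Ostb, was at 13.8 and 67.9 RPKM in duodenum and at 50.3 and 642.4 RPKM in ileum (2.51 ± 0.46, adjusted p = 0.126). Fgf15, the hormone that ileal bile acids induce, was at 0.105 and 0.176 RPKM in duodenum and at 1.67 and 23.9 RPKM in ileum (adjusted p = 0.215). In Slc10a2, Osta and Fgf15 ileal replicate 2 was the highest of the 4. Of the ileal libraries it was the one with more summed enterocyte marker RNA. The share of that marker level in the size of these differences was not tested. Nr0b2, a nuclear receptor that bile acid signalling induces in liver, went the other way, with 2.21 and 2.85 RPKM in duodenum and 0.1 and 0.348 RPKM in ileum (-1.53 ± 0.22, adjusted p = 0.0674). The Fabp6 window (chr11:43601513-43601812, minus strand, written in the gene's direction, GRCm38.p6, capitals as above) is shown as that of the gene that rose most.
Fabp6: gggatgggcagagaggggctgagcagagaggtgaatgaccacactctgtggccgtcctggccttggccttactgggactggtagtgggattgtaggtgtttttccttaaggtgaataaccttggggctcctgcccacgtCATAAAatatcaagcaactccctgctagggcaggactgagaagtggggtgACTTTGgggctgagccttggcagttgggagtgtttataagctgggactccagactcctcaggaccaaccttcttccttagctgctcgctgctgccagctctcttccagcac
It held 1 match to TTTATG and 1 to CAAAGT, each on the opposite strand.

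Brush border peptidases, which digest peptides at the enterocyte surface, included 3 genes that rose and none that fell among 13 tested, with a median of 1.14. Over all genes tested 0.225% rose. Naaladl1, a glutamate carboxypeptidase relative, was at 6.11 and 20.3 RPKM in duodenum and at 53.3 and 363.9 RPKM in ileum (3.52 ± 0.35, adjusted p = 0.0159). Mep1a, the alpha subunit of the metalloprotease meprin, was at 3.31 and 12.5 RPKM in duodenum and at 24.4 and 234.1 RPKM in ileum (3.34 ± 0.40, adjusted p = 0.0332). Dpep1, a dipeptidase, was at 3.05 and 44.2 RPKM in duodenum and at 30.5 and 382.6 RPKM in ileum (3.02 ± 0.27, adjusted p = 0.0148). All 3 were several times higher in replicate 2 of each segment, and Dpep1 of duodenal replicate 2 exceeded Dpep1 of ileal replicate 1. Without the block their adjusted p-values were 0.862, 1 and 1. Mme, the endopeptidase neprilysin, had the opposite sign without passing, with 2.24 and 19.6 RPKM in duodenum and 0.264 and 3.56 RPKM in ileum (-1.77 ± 0.34, adjusted p = 0.139). Mep1b, the beta subunit of meprin, was at 5.65 and 62.9 RPKM in duodenum and at 13.3 and 156.4 RPKM in ileum (adjusted p = 0.209).

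Among Reg lectins and antimicrobial genes, 1 of 11 tested rose and none fell. Reg3g, a secreted lectin that kills Gram-positive bacteria, was at 29.2 and 108.4 RPKM in duodenum and at 270.1 and 1353 RPKM in ileum (3.40 ± 0.38, adjusted p = 0.0279, and 0.753 without the block). Its neighbour Pap (current symbol Reg3b) was at 10.3 and 56.5 RPKM in duodenum and at 120.9 and 1439 RPKM in ileum and just missed the threshold (4.04 ± 0.56, adjusted p = 0.0598). Reg1 had the opposite sign, with 37.0 and 1005 RPKM in duodenum and 3.63 and 7.85 RPKM in ileum, and the spread between the duodenal libraries was wide (-4.93 ± 0.81, adjusted p = 0.0956). Duoxa2, a maturation factor of the oxidase Duox2, was at 0.835 and 1.40 RPKM in duodenum and at 6.60 and 16.8 RPKM in ileum (adjusted p = 0.0655).

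Goblet cell genes had positive differences without passing. None of 12 tested passed in either direction, and 11 had a positive difference, against 5185 of all 11124 genes. The median was 1.20 against -0.03 over all genes. Zg16, under its older name 1810010M01Rik, a mucus lectin, was at 636.3 and 1435 RPKM in duodenum and at 1453 and 9433 RPKM in ileum (1.95 ± 0.45, adjusted p = 0.209). Clca3 (Clca1), a secreted mucus protein, was at 14.1 and 65.1 RPKM in duodenum and at 66.7 and 391.6 RPKM in ileum (2.37 ± 0.38, adjusted p = 0.0886). Spdef, a goblet and Paneth cell factor, was at 15.3 and 11.7 RPKM in duodenum and at 33.1 and 29.7 RPKM in ileum (adjusted p = 0.205).

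The remaining genes that rose in ileal crypts came from no single family. Bex1, Bex4 and Tceal8 belong to related families of small proteins encoded near each other on the X chromosome. Bex1 was at 3.07 and 0.367 RPKM in duodenum and at 54.1 and 21.1 RPKM in ileum (3.89 ± 0.29, adjusted p = 0.00849). Tceal8 was at 0.853 and 0.0953 RPKM in duodenum and at 12.2 and 5.68 RPKM in ileum (2.72 ± 0.30, adjusted p = 0.0267). Bex4 was listed at 0 in both duodenal libraries and at 8.41 and 3.35 RPKM, from 59 and 27 reads, in ileum (adjusted p = 0.0401), so its fitted difference is set by the pseudocount. In these 3 genes each ileal library exceeded each duodenal one, and replicate 1 was the higher ileal library. Without the block their adjusted p-values were 0.414, 0.48 and 0.386.

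Dfna5h (current symbol Gsdme), a pore-forming gasdermin, was at 0.623 and 3.08 RPKM in duodenum and at 11.7 and 42.0 RPKM in ileum (3.18 ± 0.36, adjusted p = 0.0279). Agt, the precursor of angiotensin, was at 5.68 and 1.04 RPKM in duodenum and at 37.1 and 16.4 RPKM in ileum (2.80 ± 0.34, adjusted p = 0.0365). Adcy8, a calcium-stimulated adenylyl cyclase, was at 0.188 and 0.0632 RPKM in duodenum and at 3.37 and 2.86 RPKM in ileum (1.87 ± 0.22, adjusted p = 0.0298). These 3 genes kept the segments apart in each pair but differed in which replicate was higher, and without the block their adjusted p-values were 0.497, 0.586 and 0.101.

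Carriers and apolipoproteins of fat absorption included Fabp1, the gene that fell most, and Apoa4. Fabp1, a fatty acid binding protein of proximal enterocytes, was at 72.9 and 1133 RPKM in duodenal crypts and at 1.59 and 19.4 RPKM in ileal crypts. Apoa4, an apolipoprotein of chylomicrons, was at 84.8 and 1210 RPKM in duodenum and at 6.04 and 66.3 RPKM in ileum. In both genes replicate 2 was over 10 times above replicate 1 in each segment, as were the summed enterocyte markers, and within each pair duodenum was higher; the highest ileal library lay below the lowest duodenal one. The log2 differences were -5.32 ± 0.36 for Fabp1 and -3.89 ± 0.30 for Apoa4 (adjusted p = 0.00664 and 0.00849 with the block, and 1 and 1 without it). Pair 1 and pair 2 gave -4.83 and -5.80 for Fabp1, and -3.61 and -4.17 for Apoa4. Both genes are themselves among the 18 enterocyte markers, and the part of enterocyte content in these differences was not tested.

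Most genes of fat handling did not pass. Of 16 tested genes of fat uptake and triglyceride synthesis, 1 fell (Fabp1) and none rose, with a median of -0.13. Fabp2, the relative of Fabp1 found along the whole small intestine, was at 199.5 and 2003 RPKM in duodenum and at 282.0 and 3215 RPKM in ileum (0.59 ± 0.31, adjusted p = 0.699). Mogat2, an enzyme of triglyceride resynthesis, had a difference of 0.08 ± 0.27. Of 8 apolipoprotein and chylomicron genes tested, 1 fell (Apoa4) and none rose, with a median of -1.22. Apoc3, which lies beside Apoa4, was at 62.3 and 503.3 RPKM in duodenum and at 9.17 and 105.9 RPKM in ileum (-2.44 ± 0.34, adjusted p = 0.0599). Apoa1, in the same gene group, had the opposite sign, with 280.4 and 2922 RPKM in duodenum and 519.2 and 7249 RPKM in ileum (1.10 ± 0.34, adjusted p = 0.379).

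The Fabp1 window (chr6:71199629-71199928, plus strand, GRCm38.p6, capitals as above) is shown as that of the gene that fell most, and that of Rbp2 (chr9:98490287-98490586, plus strand) as one with a GATA match.
Fabp1: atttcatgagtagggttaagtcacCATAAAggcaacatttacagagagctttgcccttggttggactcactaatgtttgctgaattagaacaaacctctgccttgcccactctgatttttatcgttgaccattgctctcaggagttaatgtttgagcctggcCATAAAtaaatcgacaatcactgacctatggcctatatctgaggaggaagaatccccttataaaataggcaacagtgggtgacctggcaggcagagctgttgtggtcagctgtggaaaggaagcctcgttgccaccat
Rbp2: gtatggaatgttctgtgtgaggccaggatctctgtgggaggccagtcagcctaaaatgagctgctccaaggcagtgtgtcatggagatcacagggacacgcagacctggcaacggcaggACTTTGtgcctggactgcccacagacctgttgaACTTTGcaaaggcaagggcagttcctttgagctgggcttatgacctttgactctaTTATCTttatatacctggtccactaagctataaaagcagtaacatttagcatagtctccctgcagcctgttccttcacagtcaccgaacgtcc
The Fabp1 window held 2 matches to TTTATG and none to the other 3 motifs. The Rbp2 window held 1 match to AGATAA and 2 to CAAAGT.

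Retinoid and alcohol metabolism included 3 genes that fell and none that rose among 16 tested, with a median of -0.48. Over all genes tested 0.108% fell. Rbp2, the retinol carrier of enterocytes, was at 165.6 and 2580 RPKM in duodenum and at 12.3 and 267.3 RPKM in ileum (-3.46 ± 0.27, adjusted p = 0.00886). Adh1, an alcohol dehydrogenase that also oxidises retinol, was at 173.6 and 508.4 RPKM in duodenum and at 12.7 and 32.5 RPKM in ileum (-3.80 ± 0.35, adjusted p = 0.0148). Adh6a, encoded near Adh1 on chromosome 3, was at 31.9 and 231.6 RPKM in duodenum and at 1.33 and 5.81 RPKM in ileum (-4.46 ± 0.37, adjusted p = 0.00979). Adh1 and Adh6a separated the segments; Rbp2 of ileal replicate 2 exceeded Rbp2 of duodenal replicate 1. Without the block the adjusted p-values were 1, 0.606 and 0.682. Adh5, the member of the family found in most tissues, had a difference of -0.54 ± 0.48.

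Sugar genes were lower without passing. None of 11 carbohydrate genes tested passed, 10 of 11 had a negative difference, against 5935 of all 11124 genes, and the median was -1.05. Khk, the fructose kinase, was at 232.1 and 436.4 RPKM in duodenum and at 46.0 and 134.0 RPKM in ileum (adjusted p = 0.0731). Sucrase-isomaltase, under its older name 2010204N08Rik, was at 8.25 and 108.2 RPKM in duodenum and at 2.30 and 23.9 RPKM in ileum (-1.81 ± 0.29, adjusted p = 0.0868). Lactase, Lct, was at 2.40 and 48.3 RPKM in duodenum and at 0.616 and 2.64 RPKM in ileum (adjusted p = 0.291).

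**Figure D3:**
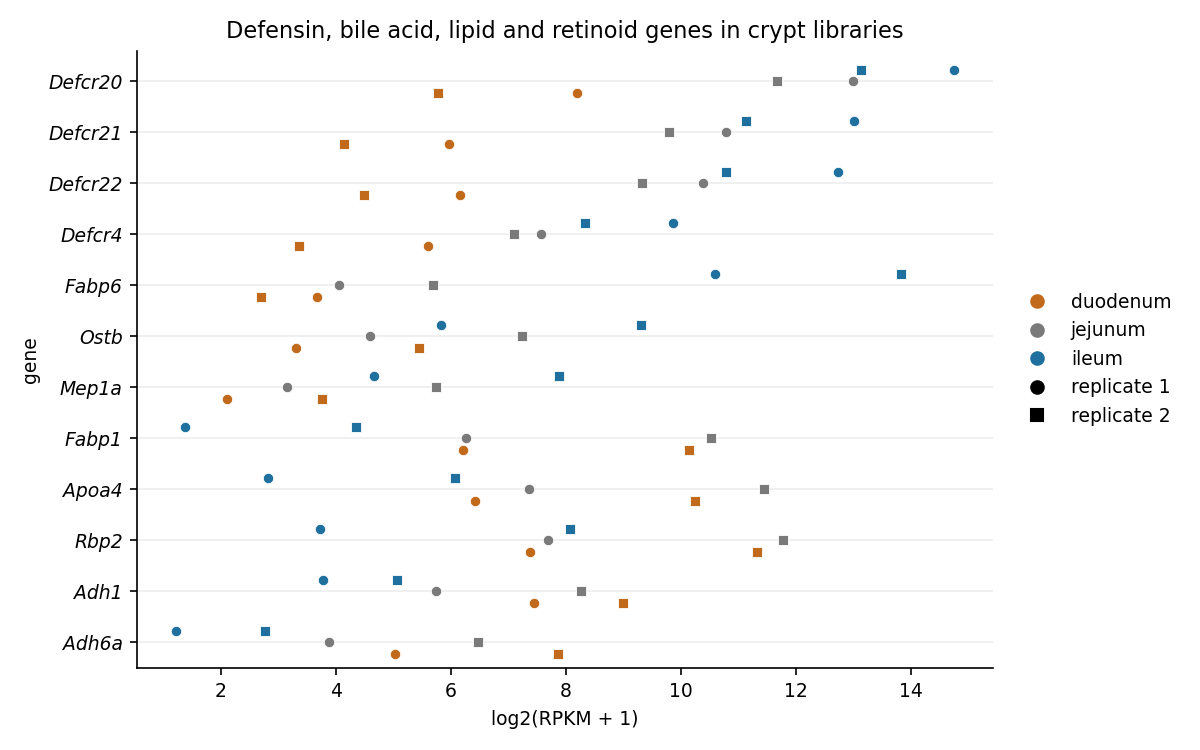
Levels of 12 defensin, bile acid, peptidase, lipid and retinoid genes as log2(RPKM + 1) (horizontal axis) in the 6 crypt libraries, coloured by origin, with circles for replicate 1 and squares for replicate 2. Defensins were higher in replicate 1 of each segment, and Fabp1, Apoa4 and Rbp2 were higher in replicate 2 of each segment.

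Other genes that fell in ileal crypts were a secreted scavenger protein, a carboxylesterase, a transporter, a protease inhibitor and a hormone. Dmbt1, a mucosal scavenger receptor protein, was at 354.9 and 751.4 RPKM in duodenum and at 53.6 and 104.5 RPKM in ileum (-2.77 ± 0.27, adjusted p = 0.0159). Slc1a3, a glutamate transporter, was at 11.1 and 11.4 RPKM in duodenum and at 0.948 and 0.518 RPKM in ileum (-2.83 ± 0.30, adjusted p = 0.0209). Wfdc10, a gene of the WAP protease inhibitor family, was at 17.8 and 13.6 RPKM in duodenum and at 0.244 and 0 RPKM in ileum, from 1 and 0 reads, so its fitted difference is set by the pseudocount (adjusted p = 0.0159). In these 3 genes no ileal library reached a duodenal one. Ces2g, under its older name 2210023G05Rik, was at 18.6 and 48.4 RPKM in duodenum and at 2.13 and 3.95 RPKM in ileum (-2.98 ± 0.30, adjusted p = 0.0167) and was the only one of 9 carboxylesterase genes tested to pass. Without the block the adjusted p-values of Dmbt1, Slc1a3, Wfdc10 and Ces2g were 0.479, 0.101, 0.129 and 0.404.

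Among gut hormones, 1 of 11 tested fell, none rose, and the median was -0.05, with large differences of either sign. Ghrl, which encodes the appetite hormone ghrelin, was at 143.0 and 94.2 RPKM in duodenum and at 13.2 and 16.4 RPKM in ileum (-2.90 ± 0.36, adjusted p = 0.0373, and 0.209 without the block). Gip, an incretin of the proximal gut, was at 205.3 and 70.5 RPKM in duodenum and at 19.6 and 14.5 RPKM in ileum (-2.76 ± 0.39, adjusted p = 0.0655). Pyy, a hormone of distal endocrine cells, was at 3.05 and 0.426 RPKM in duodenum and at 9.20 and 74.5 RPKM in ileum (3.53 ± 0.93, adjusted p = 0.291). Neurotensin, Nts, was at 0 and 0.0899 RPKM in duodenum and at 1.99 and 9.81 RPKM in ileum (adjusted p = 0.11). Cck, which triggers bile release, was at 70.7 and 41.9 RPKM in duodenum and at 7.65 and 13.2 RPKM in ileum (adjusted p = 0.128). Sst, the somatostatin gene, overlapped between segments, with 137.8 and 54.9 RPKM in duodenum and 34.2 and 140.4 RPKM in ileum. None of 15 enteroendocrine factor and granin genes passed; their median was -0.41, and Neurog3, which starts the endocrine lineage, was at 8.63 and 9.51 RPKM in duodenum and at 2.90 and 2.78 RPKM in ileum (-1.39 ± 0.30, adjusted p = 0.171).

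No stem cell, cell cycle or ribosomal protein gene passed. The median was -0.09 for the 18 stem cell genes, and the 24 cell cycle genes and 76 ribosomal protein genes had medians of -0.25 and -0.18, against -0.03 over all genes. In pairs 1 and 2 the medians were 0.325 and -0.621 for stem cell genes and 0.354 and -0.848 for cell cycle genes. The pairs thus differed in sign for both lists, as they did over all genes (0.161 and -0.190). Ribosomal protein genes had -0.162 and -0.333. Lgr5, the receptor that marks crypt base stem cells, was at 6.37 and 2.90 RPKM in duodenum and at 17.2 and 2.11 RPKM in ileum. Ascl2, a stem cell factor, was at 26.9 and 25.6 RPKM in duodenum and at 32.2 and 18.3 RPKM in ileum. Olfm4 was at 341.0 and 308.5 RPKM in duodenum and at 941.2 and 33.4 RPKM in ileum, so the ileal replicates lay on either side of the duodenal ones (-0.85 ± 1.08).

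**Figure D4:**
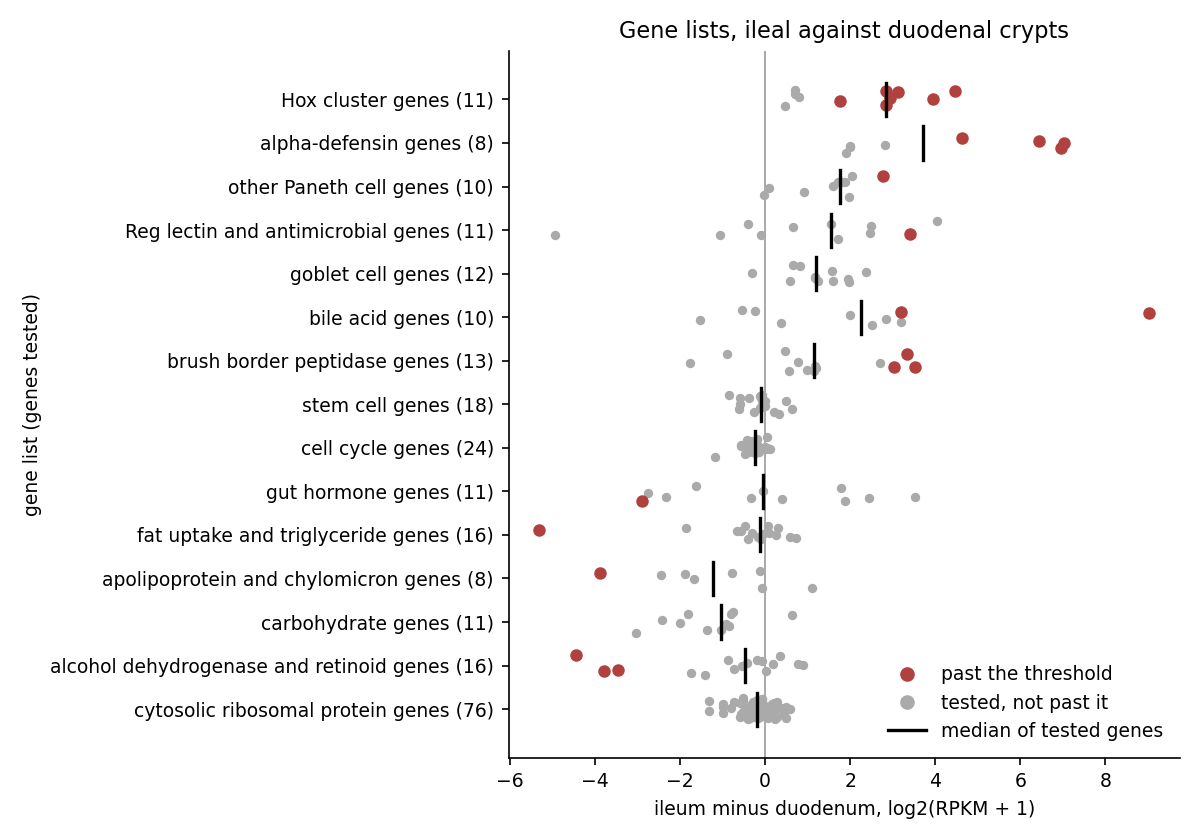
Ileum minus duodenum difference on the log2(RPKM + 1) scale (horizontal axis) of the tested genes of 15 lists, 1 point per gene, with the median as a bar and genes past the threshold in red; points are spread vertically for legibility. Medians run from -1.22 for apolipoprotein and chylomicron genes to 3.71 for the 8 alpha-defensin symbols, of which Defcr24 and Defcr6 are 1 measurement drawn as 2 points. Those of stem cell and cell cycle genes lie near 0, while the medians of their replicate pairs differ in sign.

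Jejunal crypts, which lie between the segments in the gut, lay between them for 32 of the 37 genes and outside for 5. The 5 were Hoxb8, Hoxb3, Fabp1, Apoa4 and Rbp2. The 37 were selected for a wide gap between ileum and duodenum, which favours a place between them. The share over all genes was not computed, so the count does not show a gradient. Their comparisons share the duodenal or ileal libraries with the one above, so values are given side by side only. For Hoxb9 the difference of jejunum from duodenum was 0.01, with 0.297 and 0 RPKM in jejunum, against 4.47 for ileum from duodenum. For Defcr21 it was 5.23, with 1760 and 885.5 RPKM in jejunum, against 7.02. For Onecut2 it was -1.80, with 5.51 and 7.45 RPKM in jejunum, against -4.57. Gata4 of jejunum, at 35.1 and 81.6 RPKM, was near the duodenal level (-0.18), and so was Fabp1, at 75.7 and 1467 RPKM (0.21). Osr2 of jejunum, at 43.1 and 58.5 RPKM, was nearer to the ileal level (1.96 from duodenum). By these values most of the difference in Hoxb9, Gata4 and Fabp1 lay between jejunum and ileum, and most of that in Defcr21 and Osr2 between duodenum and jejunum.

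Villi and organoids are libraries that the crypt comparison did not use, with 1 library per origin. Of the 37 genes, 36 had the crypt sign in villi and 35 in organoids, and 29 and 25 of them differed by at least 1 on the log2 scale in that direction. The same shares over all genes were not computed, so these counts describe the 37 genes and do not test the calls. All 25 ileal genes had the crypt sign in villi and 24 in organoids, where Tceal8 did not (-0.41). Of the 12 duodenal genes, 11 had it in villi and 11 in organoids: Dmbt1 did not in villi, and Wfdc10 was listed at 0 in the organoids of both segments. In a limma test of the difference between tissues, 0 of 12597 genes passed for villi against crypts (0%) and 0 for organoids against crypts (0%), with 817 and 546 genes at an unadjusted p under 0.05. The single villus and organoid libraries were assumed in that test to vary like the crypt libraries.

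After 12 weeks of culture, organoids still differed in defensin levels between segments. Defcr20 was at 355.3 RPKM in duodenal and 11440 RPKM in ileal organoids, and Naaladl1 was at 0.124 and 22.2 RPKM. Osr2 was at 0.054 RPKM in duodenal and 40.1 RPKM in ileal organoids, a difference of 5.28 against 2.77 in crypts. The Hoxb genes were low in organoids: Hoxb9 was at 0.0342 and 2.39 RPKM, and Hoxb6 at 0 and 0.274 RPKM. Onecut2 was at 9.91 RPKM in duodenal and 1.39 RPKM in ileal organoids. Fabp6 was at 0 and 4.12 RPKM in organoids, against 29.6 and 24600 RPKM in villi. Mep1a was nearly level in organoids, at 15.8 and 18.7 RPKM, and at 67.3 and 752.1 RPKM in villi. Dmbt1 was at 5.93 RPKM in duodenal and 15.5 RPKM in ileal villi, the reverse of crypts, and at 223.9 and 8.03 RPKM in organoids.

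**Figure D5:**
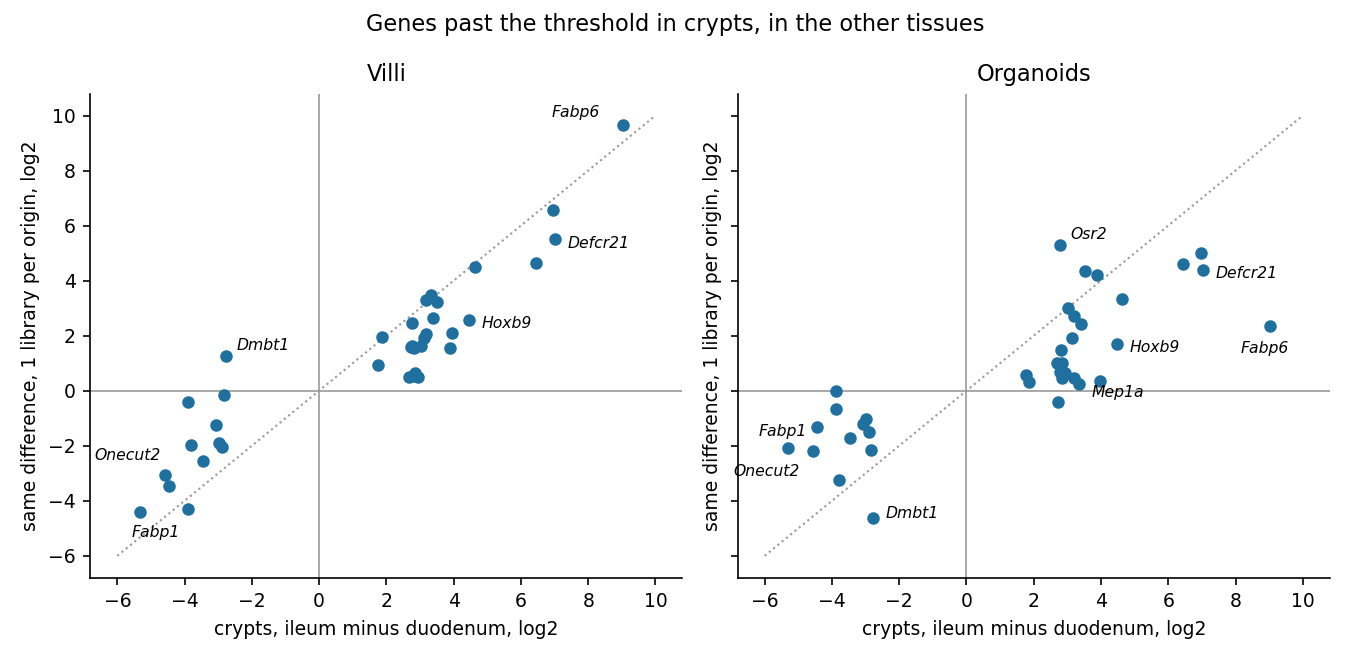
Ileum minus duodenum difference on the log2(RPKM + 1) scale of the 37 genes in crypts (horizontal axis) against the same difference in villi (left) and organoids (right), 1 library per origin, with the line of equality dotted. Points lie in the quadrants of the same sign for 36 genes in villi and 35 in organoids, and Dmbt1 stands in the opposite quadrant in villi.

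The RefSeq promoter table held entries of the 300-base window for 25 of the 37 genes, 16 that rose and 9 that fell. AGATAA or TGATAA, on either strand, was in 4 of the 9 windows of genes that fell (44.4%) and in 5 of the 16 of genes that rose (31.2%), against 19.0% of all 27025 promoters of the table. The 4 were Rbp2, Adh1, Wfdc10 and Ces2g (2210023G05Rik), and the 5 were the 3 defensins Defcr20, Defcr21 and Defcr22 with Hoxb8 and Mep1a. CAAAGT was in 4 of 9 (44.4%) and in 7 of 16 (43.8%), against 14.3% of all promoters. TTTATG was in 3 of 9 (33.3%) and in 3 of 16 (18.8%), against 12.1%. The 3 defensin windows are near copies of each other, and those of Bex1 and Bex4 share a run of at least 40 bases. With such copies counted once, 13 windows of genes that rose were left, of which 3 held AGATAA or TGATAA (23.1%), 6 held CAAAGT (46.2%) and 3 held TTTATG (23.1%). With so few windows these shares are a description only.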

How the data were processed

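Polyadenylated RNA was purified with Trizol LS, Poly(A)Purist and mRNA-ONLY kits and sequenced on a SOLiD 4 sequencer as 50-bp reads, per the labels' protocols. BWA and the mm9 build are named in the submitters' processing notes. The authors deposited RPKM values per transcript, per the file headers; the treatment of multi-mapped reads and of strand: not given in the sources used here. One row per symbol was kept (longest exons, first row on ties). Values were whole multiples of 1 read (tolerance 0.02), which gave 5268480 to 10275855 mapped reads in the 4 libraries compared; a level near 1 read is not precise.

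Genes with the equivalent of 10 reads in at least 2 crypt libraries and 15 reads in all were tested on log2(RPKM + 1) with limma 3.58.1 (R 4.3.3), with a mean-variance trend, over the 6 crypt libraries, with origin and replicate number as terms (2 residual degrees of freedom), two-sided, Benjamini-Hochberg adjusted over the 11124 genes. The series is compared as paired by replicate number. The labels do not say what same-numbered libraries share, so the pairing rests on the numbers alone. Deviations of same-numbered libraries correlated across genes with r of 0.42 (duodenum and jejunum), 0.51 (duodenum and ileum) and 0.79 (jejunum and ileum). These values come from the same libraries and do not establish the pairing. Villi and organoids entered a second fit over all 12 libraries.

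The genes and lists were chosen with earlier results of these data known. Named were the marker genes, the genes past the threshold, and members of the gene lists, among them the 2 with the smallest p in each list; Lgr5, Olfm4, Ascl2, Smoc2, Cdx2, Hnf4a, Gata6, Pdx1 and other list members cited beside a group were picked to describe it, with values seen. List medians carry no test, and a gene with reads only in ileum or only in duodenum could enter a list through that segment alone. The fit was also run on simulated data, in which the replicate effect was the same in each origin. That run therefore cannot test the pairing of these libraries. Promoters are RefSeq windows of GRCm38.p6, 1 per gene (the first listed), searched for fixed letters.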

Additional observations from a re-analysis of the deposited data

How the results depend on the processing

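The count of 37 genes depended on the fit. All 37 genes kept their direction in each of 15 alternative settings, but they were selected on these same libraries. Each of the 6 fits that left out 1 library passed more genes than the main fit, so these fits do not test the calls. Without the replicate block 4 genes passed, all among the 37. Counts were 199 with only the 4 ileal and duodenal libraries and the block, 2 with no filter on low values, 69 with trimmed mean scaling, 80 with quantile normalization and 109 with limma-voom on recovered reads. Leaving out 1 library gave 71 to 1324 genes: 1324 without duodenum replicate 1, 762 without duodenum replicate 2, 202 and 208 without jejunum replicate 1 or 2, 155 without ileum replicate 1 and 71 without ileum replicate 2. Such a fit has 1 residual degree of freedom, and a lone library is assumed to vary like the others; the cause of the higher counts was not tested. The counts of 0 for the differences between tissues stayed at 0 in the settings run. Of the 82 uncalled genes followed through the settings, 9 changed sign when 1 library was left out, and their log2 differences ranged from -0.26 to 1.21 for Atp2b1, -0.0062 to 0.83 for Rfng, -2.35 to 0.0051 for Rrm2, -2.72 to 0.12 for Clu, -2.23 to 0.21 for Tagln, -1.35 to 0.054 for Vim, -0.14 to 0.54 for Tie1, -0.29 to 0.76 for Pnliprp1 and -0.63 to 0.0093 for Muc6; the cause was not tested. Depth limits genes of few reads: duodenal Hoxb values rest on 0 to 16 reads.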

Other observations

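Several genes of other absorptive tasks had wide differences that did not pass the threshold. Cubn, the receptor for vitamin B12 bound to intrinsic factor, was at 0.0838 and 1.81 RPKM in duodenal crypts and at 1.34 and 24.7 RPKM in ileal crypts (2.15 ± 0.51, adjusted p = 0.218), and none of 9 vitamin B12 genes passed. S100g, the intestinal calcium binding protein calbindin, was at 17.8 and 135.9 RPKM in duodenum and at 7.69 and 27.0 RPKM in ileum (-1.70 ± 0.49, adjusted p = 0.331). Slc46a1, the proton-coupled folate transporter, was at 5.96 and 57.3 RPKM in duodenum and at 5.12 and 11.5 RPKM in ileum (adjusted p = 0.521). Guca2a, the gut peptide guanylin, was at 269.1 and 310.5 RPKM in duodenum and at 1488 and 5321 RPKM in ileum (3.28 ± 0.44, adjusted p = 0.0544). Slc34a2, a phosphate transporter, was at 0.0916 and 0.154 RPKM in duodenum and at 3.59 and 38.9 RPKM in ileum (3.59 ± 0.66, adjusted p = 0.126).

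The duodenal libraries differed from each other in some genes of stomach and duodenum, chosen here after their values were seen, and not in 1 direction. Pdx1 was at 0.147 and 6.84 RPKM, the gastric peptide gene Tff2 at 0.997 and 23.2 RPKM, Gkn1 at 0 and 2.35 RPKM, and Akp3, a duodenal alkaline phosphatase, at 0.339 and 106.1 RPKM in replicates 1 and 2. Reg1 was at 37.0 and 1005 RPKM. Other such genes were lower in replicate 2: Pgc, the gastric progastricsin gene, at 7.54 and 4.06 RPKM, Muc6 at 1.47 and 0.417 RPKM, Onecut2 at 30.3 and 20.3 RPKM, and Gip at 205.3 and 70.5 RPKM. In the ileal libraries Pdx1, Tff2, Gkn1, Akp3 and Reg1 were between 0 and 7.85 RPKM. Smooth muscle markers went the other way, with 9.99 RPKM in duodenal replicate 1 and 1.62 RPKM in replicate 2.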
